A study of Mus musculus with 12 samples.

Results

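The semaphorin, ephrin, Slit and netrin guidance genes were examined in primary mouse oligodendrocyte precursor cells (OPCs), the glial progenitors that give rise to oligodendrocytes. Members were chosen by symbol, as the genes of class 3 to 7 semaphorins, plexins, neuropilins, ephrins, Eph receptors, Slits, Robos, netrins, *Dcc* and the *Unc5* family. The choice was made with earlier results of these data known. The rule found 71 of 45563 symbols, of which 68 are protein-coding genes and 3 are antisense transcripts at the *Plxna4* locus. OPCs for RNA sequencing came from WT and TNFR2-/- pups on the C57BL/6 background, aged postnatal days 2 to 5 by the labels, and isolated from cortex with beads against PDGFRα. TNFR2 is one of the receptors for tumor necrosis factor (TNF), and the TNFR2-/- mice lack it from the germline in all cells, so a difference between genotypes is not limited to what TNFR2 does within OPCs. After 3 days in vitro with growth factors, cultures were left non-stimulated with PBS (NS) or stimulated (St) for 3 h with TNF, IFNγ and IL1β at 25 ng/mL each. The 12 libraries form 4 groups of 3, WT NS, WT St, TNFR2-/- NS and TNFR2-/- St, and an NS and an St library of 1 genotype that share a number are taken as 1 culture. The comparisons ask how these genes responded to the inflammatory stimulus, whether they differed between genotypes, and whether the response itself did.

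Guidance molecules were first known for steering growing axons. Semaphorins bind plexins, with neuropilins as co-receptors for most of class 3; ephrins on one cell bind Eph receptor tyrosine kinases on another and can signal in both directions; Slits bind Robo receptors; and netrin-1 attracts through DCC and repels through UNC5 receptors. The same cues act on glia, and migrating OPCs are known to be steered by class 3 semaphorins and by netrin-1. Plexins, Ephs, Robos and DCC reach the cytoskeleton largely through small GTPases.

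Library totals ranged from 26886878 to 30335265 read pairs. Values are FPKM as deposited (fragments scaled to gene length and library total), from which whole read counts could be recovered for 26635 of 26636 genes. NS and St libraries came in separate tables, but each library was scaled by its own total. For *Tnfrsf1b*, the TNFR2 gene, WT libraries held 12 to 24 (NS) and 61 to 145 (St) reads, whereas those labeled TNFR2-/- held 213 to 346 (NS) and 282 to 356 (St). It thus went against the label, the exons covered by its reads are not known, and each genotype direction below rests on the labels. The 6 OPC markers (*Pdgfra*, *Cspg4*, *Olig1*, *Olig2*, *Sox10* and *Gpr17*) summed to 3914 to 4913 RPM (read pairs per 1000000 of the library) in NS and 2727 to 3204 in St libraries, while 6 cytokine response genes summed to 78.4 to 107 in NS and 7147 to 8091 in St libraries. Markers of microglia summed to at most 1.88 RPM and those of endothelial cells to at most 8.69. Markers of mature oligodendrocytes varied between WT libraries, with sums of 23.3 to 100 RPM in NS and 29.4 to 101 in St. In libraries labeled TNFR2-/- they summed to 66.4 to 86.1 (NS) and 50.2 to 73.9 (St) RPM. Culture 5 labeled TNFR2-/- stood apart in astrocyte markers, all 6 of which had reads in every group. They summed to 3441 (NS) and 3403 (St) RPM in that culture, against 2208 to 2350 in the other libraries labeled TNFR2-/- and 1466 to 1801 in WT libraries. *Gfap* had 346 and 349 RPM there and 9.34 to 63.7 elsewhere. Comparisons that involve libraries labeled TNFR2-/- were therefore also made without both libraries of that culture. In bulk RNA a lower level can come from fewer cells of a type or from less RNA per cell, and these cannot be told apart.

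Most guidance genes were expressed in the OPC cultures, over a wide range of levels (plot of levels by class). The cultures also held reads of astrocyte markers, and bulk RNA does not assign a gene to a cell type. Because the divisor behind the FPKM did not follow the annotated exon length of a gene (a rank correlation of 0.01 over 16014 genes, as a description across genes and not replicates), genes are ranked here by recovered reads per 1000000 read pairs and per kilobase of annotated exon, with mean ± SD of 3 libraries. *Plxnb2*, a receptor for class 4 semaphorins, stood highest, at 32.3 ± 6.25 in WT NS and 35.2 ± 3.96 in libraries labeled TNFR2-/- NS. It was followed in WT NS by *Sema6a* (22.3 ± 1.41), *Sema6d* (21.5 ± 1.40) and the secreted ligand gene *Ntn1* (19.1 ± 0.298), where the ranges of both *Sema6* genes overlapped and *Ntn1* lay below them. The leading members of the other classes in the mean of all libraries were *Efnb2* of the ephrin-Bs, *Sema3d* of the class 3 semaphorins, *Unc5c* of the netrin receptors, *Nrp1* of the neuropilins, *Epha2* of the EphAs, *Efna2* of the ephrin-As, *Ephb2* of the EphBs, *Robo1* of the Robos and *Slit1* of the Slits. In WT NS these were at 6.28 ± 0.0484, 6.79 ± 1.02, 6.40 ± 0.779, 3.93 ± 0.308, 5.52 ± 1.65, 4.27 ± 0.463, 3.48 ± 0.204, 1.83 ± 0.199 and 1.33 ± 0.229, respectively. Ligand and receptor genes of the same pathway were thus measured in the same libraries, such as *Ntn1* with *Unc5c* and *Efnb2* with *Ephb2*. Gene positions below are from the GENCODE annotation of GRCm38.

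**Figure D1:**
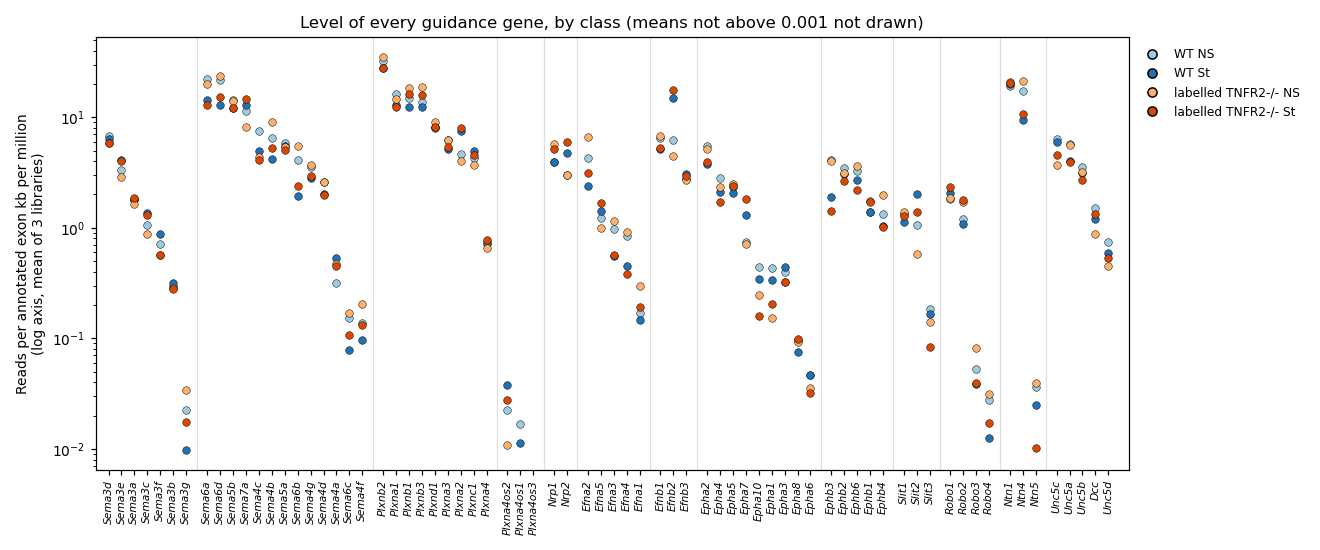
Level of each of the 71 guidance genes as recovered reads per 1000000 read pairs and per kilobase of annotated exon (log axis). Each point is the mean of 3 libraries of 1 group, and genes are ordered by their WT NS mean within a class. Plexins, class 4 to 7 semaphorins and netrins reach the highest levels, and 1 Plxna4 antisense transcript without reads is not drawn.

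Of the 71 members, 66 had a mean of at least 0.1 FPKM and were tested, and 56 had the mean of at least 1 FPKM needed for a call. *Efna1*, *Epha8*, *Ntn5*, *Plxna4os2* and *Plxna4os3* were below the test's filter, and *Plxna4os3* had no read in any library, which allows up to 3 reads per library by counting error alone. *Plxna4os1*, *Sema3g*, *Robo4* and *Epha6* had at most 13 reads in any library. Use of strand in the counting is not given in the sources used here, so reads of the *Plxna4* antisense transcripts and of *Plxna4* cannot be told apart.

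The class leaders that were not called in any comparison held the following FPKM, with libraries in the order of replicates 2, 3 and 4 in WT and 2, 4 and 5 in those labeled TNFR2-/-. *Plxnb2* measured 407, 278 and 388 FPKM in WT NS, 352, 236 and 339.7 in WT St, 432, 392 and 345 in those labeled TNFR2-/- NS and 348, 320.1 and 256 in those labeled TNFR2-/- St. *Ntn1* measured 314, 311 and 305 FPKM in WT NS, 302, 327 and 337 in WT St, 331, 310.0 and 373 in those labeled TNFR2-/- NS and 322, 320.3 and 347 in those labeled TNFR2-/- St. For both genes the groups overlapped in each of the 4 comparisons of 2 groups, and the spread of *Plxnb2* within a group was the wider. *Sema3d* measured 32.1, 42.1 and 42.2 FPKM in WT NS, 30.4, 41.0 and 38.2 in WT St, 21.9, 25.2 and 53.4 in those labeled TNFR2-/- NS and 22.0, 24.4 and 53.5 in those labeled TNFR2-/- St. *Nrp1* measured 51.2, 59.0 and 52.2 FPKM in WT NS, 53.0, 56.6 and 52.2 in WT St, 79.9, 54.5 and 101 in those labeled TNFR2-/- NS and 67.2, 59.3 and 86.4 in those labeled TNFR2-/- St. For both, replicate 5 labeled TNFR2-/- was the highest library of its condition. *Epha2*, an ephrin-A receptor gene, measured 11.9, 6.39 and 10.7 FPKM in WT NS, 7.97, 4.28 and 7.54 in WT St, 10.01, 11.7 and 5.51 in those labeled TNFR2-/- NS and 7.13, 8.44 and 4.88 in those labeled TNFR2-/- St. *Ephb2*, an ephrin-B receptor gene, measured 15.1, 13.5 and 13.9 FPKM in WT NS, 12.7, 11.7 and 12.9 in WT St, 11.6, 13.8 and 12.5 in those labeled TNFR2-/- NS and 8.87, 11.6 and 12.2 in those labeled TNFR2-/- St. Values of *Epha2* spread widely within each group, and those of *Ephb2* were within a narrow range in WT. *Robo1* measured 70.4, 61.8 and 56.8 FPKM in WT NS, 66.2, 78.6 and 68.4 in WT St, 69.6, 63.2 and 57.1 in those labeled TNFR2-/- NS and 79.2, 83.5 and 76.7 in those labeled TNFR2-/- St. *Slit1* measured 17.02, 20.9 and 14.97 FPKM in WT NS, 15.1, 17.2 and 12.8 in WT St, 17.8, 18.6 and 18.8 in those labeled TNFR2-/- NS and 17.5, 18.5 and 14.9 in those labeled TNFR2-/- St. For *Slit1* the groups overlapped in each of these 4 comparisons, and for *Robo1* all St libraries labeled TNFR2-/- were above all NS libraries.

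In both genotypes stimulation moved ligand and receptor genes of these families in both directions: *Efnb2* and *Slit2* rose with the receptor genes *Plxna2*, *Nrp2* and *Epha7*, while *Sema6a*, *Sema6b*, *Sema6d*, *Efna2*, *Ntn4* and the EphB receptor gene *Ephb3* fell. The largest rise was that of *Efnb2*, 2.37-fold in WT and 4.004-fold in cultures labeled TNFR2-/-, and the largest fall that of *Ephb3*, 2.16-fold and 2.80-fold. A gene is called here at an adjusted p of at most 0.05 (limma on log2(FPKM + 0.5), Benjamini-Hochberg over 18081 genes), a fold change of at least 1.5 (0.585 on the log2 scale) and a mean of at least 1 FPKM. Fold changes are on that log2 scale, which understates the change of genes of low FPKM, and SE is the standard error of the fit. Where parentheses hold a pair of results, the first is for WT and the second for cultures labeled TNFR2-/-. In WT OPCs 11 of 66 members were called, 5 higher and 6 lower, which is 16.7% against 7.53% of all genes tested (4.58% higher and 2.95% lower). In OPCs labeled TNFR2-/- 15 were called, 7 higher and 8 lower, which is 22.7% against 10.1% (5.41% higher and 4.68% lower), and under median-of-ratios scaling 8 were higher and 6 lower. All 11 calls in WT were also calls in the same direction in cultures labeled TNFR2-/-, where they made up 73.33% of the calls, and *Sema7a*, *Efna5*, *Sema4b* and *Ephb6* were called there in addition. The median log2 change was −0.17 in WT and −0.13 in cultures labeled TNFR2-/-, and over all genes tested −0.05 and −0.11. St and NS libraries did not overlap for 25 members in WT (37.9%, against 37.7% of all genes) and for 29 members in cultures labeled TNFR2-/- (43.9%, against 37.3%). An unadjusted p under 0.05 with limma was found for 23 and 30 of 66 members, and for 5019 and 6793 of all 18081 genes. Samples of a group are separate cultures by their numbers only, so p measures the spread between these libraries.

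**Figure D2:**
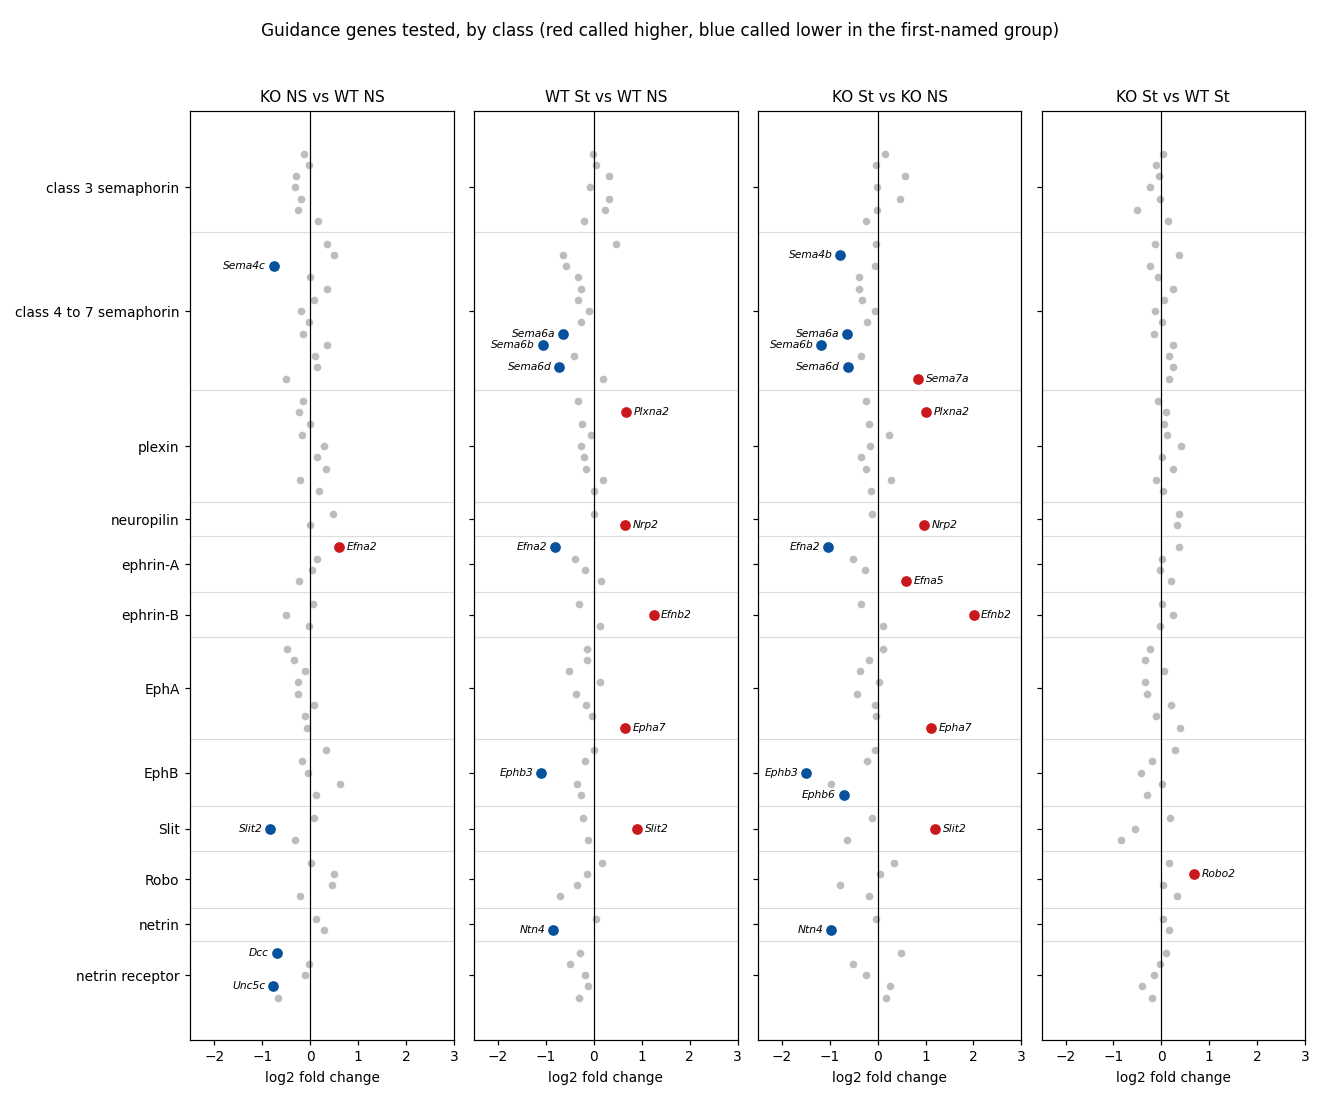
Log2 fold change of the 65 guidance genes tested other than Plxna4os1, 1 row per gene within its class, in 4 comparisons named as first group vs second (KO, libraries labeled TNFR2-/-). Filled red and blue points are called genes and gray points are not called; Efnb2 lies farthest to the right and Ephb3 farthest to the left under stimulation in both genotypes, and 1 gene is called between the stimulated groups.

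The promoters of the 4 genes with the largest mean change among those called in both genotypes are shown, 2 that rose and 2 that fell, because cytokine-induced genes often carry motifs for NF-κB or interferon regulatory factors near their start. Each is the RefSeq sequence upstream of the transcription start on GRCm38.p6, written 5′ to 3′ on the strand of the gene, without bases that lie inside the annotated gene. Capitals mark a match to the interferon-stimulated response element (ISRE).
Efnb2, 250 bases, chr8:8661243-8661492, minus strand: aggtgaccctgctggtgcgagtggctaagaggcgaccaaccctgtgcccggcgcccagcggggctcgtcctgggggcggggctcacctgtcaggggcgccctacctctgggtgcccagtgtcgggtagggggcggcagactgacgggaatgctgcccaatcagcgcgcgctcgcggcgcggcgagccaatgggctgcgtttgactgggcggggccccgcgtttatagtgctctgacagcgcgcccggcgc
Slit2, 233 bases, chr5:47982905-47983137, plus strand: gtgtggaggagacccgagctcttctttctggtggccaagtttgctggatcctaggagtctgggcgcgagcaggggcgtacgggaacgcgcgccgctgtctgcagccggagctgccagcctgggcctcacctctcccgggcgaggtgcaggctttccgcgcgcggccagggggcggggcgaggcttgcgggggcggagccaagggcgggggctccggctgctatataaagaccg
Ephb3, 210 bases, chr16:21204545-21204754, plus strand: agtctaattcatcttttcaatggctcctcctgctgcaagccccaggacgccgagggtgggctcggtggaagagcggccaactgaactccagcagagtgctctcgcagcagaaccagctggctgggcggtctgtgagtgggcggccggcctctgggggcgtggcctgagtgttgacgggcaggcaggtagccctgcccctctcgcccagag
Sema6b, 250 bases, chr17:56140344-56140593, minus strand: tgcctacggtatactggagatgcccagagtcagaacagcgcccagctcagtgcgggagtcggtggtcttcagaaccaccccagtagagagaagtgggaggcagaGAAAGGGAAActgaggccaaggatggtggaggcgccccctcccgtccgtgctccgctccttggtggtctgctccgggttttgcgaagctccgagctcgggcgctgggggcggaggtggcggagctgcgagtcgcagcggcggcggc

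The κB motif (10 bases, by its name) and the ISRE (GAAA, any 2 bases, GAAA) were searched on both strands of the 250 upstream bases. They matched 3.9% and 2.97% of 32817 mouse promoters. Of 74 promoters of 58 members with an entry, 4 and 2 held a match. Of the 4 genes shown, *Sema6b*, which fell, had the ISRE letters, starting 146 bases before its transcription start, and a second *Sema6b* promoter inside the annotated gene had none. *Efnb2*, *Slit2* and *Ephb3* had no match to either in this window. A match is a description of the letters and not a bound site. The upstream bases were rich in G and C, with 72%, 69.6%, 65.6% and 66% for *Efnb2*, *Slit2*, *Ephb3* and *Sema6b*.

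Of the class 6 semaphorin genes, which encode transmembrane ligands of plexin-As, *Sema6a*, *Sema6b* and *Sema6d* fell. *Sema6a* (ENSMUSG00000019647) measured 2261, 2255 and 2019 FPKM in WT NS and 1453, 1424 and 1306 in WT St libraries. In those labeled TNFR2-/- it measured 1819.7, 2145 and 1933 (NS) and 1260.1, 1372 and 1158 (St). All 6 St libraries were below all 6 NS libraries, and the log2 fold change was −0.64 ± 0.08 SE, adjusted p = 0.00038 in WT and −0.64 ± 0.08 SE, adjusted p = 0.000305 in cultures labeled TNFR2-/-. *Sema6d* (ENSMUSG00000027200, chr2:124089969-124667770) was at 46.7, 47.4 and 42.0 FPKM in WT NS and at 26.4, 28.3 and 26.8 in WT St. Libraries labeled TNFR2-/- held 50.8, 45.0 and 54.2 (NS) and 32.2, 31.2 and 33.2 (St). NS and St values were again separate in both genotypes (−0.73 ± 0.08 SE, adjusted p = 8.49e-05; −0.62 ± 0.08 SE, adjusted p = 0.000203). *Sema6b* (ENSMUSG00000001227, chr17:56123085-56140343), whose promoter carries the ISRE letters above, went from 25.1, 25.5 and 24.5 to 10.8, 11.8 and 12.4 FPKM in WT OPCs. Cultures labeled TNFR2-/- went from 25.6, 28.6 and 45.7 to 9.95, 13.4 and 20.2 FPKM. Culture 5 was the highest of its group in both conditions, and each culture still fell (−1.07 ± 0.24 SE, adjusted p = 0.0127 in WT; −1.18 ± 0.24 SE, adjusted p = 0.00513 in cultures labeled TNFR2-/-). Of the 13 class 4 to 7 semaphorins tested, 11 had a lower mean in WT St and 12 in the St libraries labeled TNFR2-/-. A lower mean was also the common direction over all 66 members tested, with 47 lower in WT and 45 in cultures labeled TNFR2-/-. Their summed level per annotated length was 97.9 to 103 (NS) and 72.1 to 76.7 (St) in WT libraries, and 91.2 to 106 and 74.1 to 79.6 in those labeled TNFR2-/-.

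Members of classes 3, 4 and 7 differed from this pattern in part. *Sema4b* (ENSMUSG00000030539, chr7:80186841-80226527), a transmembrane class 4 semaphorin, was at 671, 556 and 863 FPKM in NS and 443, 369 and 392 in St libraries labeled TNFR2-/- (−0.77 ± 0.21 SE, adjusted p = 0.0224). In WT it was at 525, 379 and 579 and 353, 234 and 364 FPKM. The WT groups did not overlap either, and the change of −0.65 ± 0.21 SE had an adjusted p of 0.0676 without pairing and of 0.00443 with NS and St libraries paired by culture, which makes it a call. It was also one with a weight for each library (0.0193), without WT NS replicate 3 (0.0352) and without TNFR2-/- NS replicate 5 (0.05). *Sema7a* (ENSMUSG00000038264, chr9:57940112-57962865), whose GPI-anchored product binds plexin-C1 and integrins, rose in cultures labeled TNFR2-/- from 238, 324 and 223 to 509, 512 and 388 FPKM (0.85 ± 0.14 SE, adjusted p = 0.00171). WT cultures had 343, 399 and 351 FPKM in NS and 415, 439 and 393 in St libraries, where the groups overlapped (0.19 ± 0.14 SE, adjusted p = 0.468). *Sema4c*, a ligand of plexin-B2, measured 10.4, 11.98 and 11.3 FPKM in WT NS and 6.85, 7.83 and 7.39 in WT St, without overlap, at a fold change under 1.5 (−0.58 ± 0.16 SE, adjusted p = 0.0302). It passed 1.5-fold with a pseudocount of 0.1 FPKM (log2 −0.60) and with voom (−0.61). *Sema4g* had −0.32 ± 0.09 SE in WT (adjusted p = 0.0288) and −0.33 ± 0.09 SE in cultures labeled TNFR2-/- (adjusted p = 0.0173), also under 1.5-fold. None of the 7 class 3 semaphorins was called with stimulation in either genotype by limma or voom over the 12 libraries, and 1 in each genotype had an unadjusted p under 0.05 with either tool. Their medians were 0.05 and −0.01 on the log2 scale in WT and in cultures labeled TNFR2-/-. *Sema3e*, a secreted ligand of plexin-D1, had 0.47 ± 0.14 SE, adjusted p = 0.0306 in cultures labeled TNFR2-/-, under 1.5-fold, and was called higher there without TNFR2-/- NS replicate 2 (0.59 ± 0.13 SE, adjusted p = 0.0131).

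Of the receptors for semaphorins, *Plxna2* and *Nrp2* rose. *Plxna2* (ENSMUSG00000026640, chr1:194618218-194816869), which encodes a receptor for class 6 semaphorins and, with neuropilins, for class 3, had 35.8, 37.6 and 31.1 FPKM in WT NS and 58.7, 57.0 and 51.0 in WT St libraries. It had 31.6, 32.0 and 25.2 (NS) and 60.5, 63.6 and 54.7 (St) in libraries labeled TNFR2-/-. Each St library was above each NS library (0.67 ± 0.11 SE, adjusted p = 0.00181 in WT; 1.002 ± 0.11 SE, adjusted p = 7.95e-05 in cultures labeled TNFR2-/-). *Nrp2* (ENSMUSG00000025969, chr1:62703285-62818695), the co-receptor for SEMA3F, had 16.5, 20.7 and 20.1 FPKM in WT NS and 26.1, 33.2 and 31.3 in WT St. The corresponding libraries labeled TNFR2-/- had 16.8, 21.4 and 18.8 and 31.4, 40.2 and 41.9. The 6 St libraries again lay above the 6 NS libraries (0.65 ± 0.14 SE, adjusted p = 0.0105; 0.97 ± 0.14 SE, adjusted p = 0.000647). *Nrp1*, the co-receptor for SEMA3A, was at 51.2 to 59.0 FPKM in WT NS and 52.2 to 56.6 in WT St (0.00 ± 0.20 SE, adjusted p = 0.998), and at 54.5 to 101 and 59.3 to 86.4 in libraries labeled TNFR2-/-, with the highest value of each condition in culture 5. The other 8 plexin genes were not called, and the log2 fold change of *Plxna1* was −0.32 ± 0.09 SE, adjusted p = 0.0267 in WT. *Plxnb2* was at 278 to 407 FPKM in WT NS and 236 to 352 in WT St, with overlap (−0.21 ± 0.19 SE, adjusted p = 0.548 without pairing). It was lower in the St library of all 6 cultures. With limma and libraries paired by culture, the change was −0.21 ± 0.03 SE, adjusted p = 0.0042 in WT. In cultures labeled TNFR2-/- it was −0.34 ± 0.03 SE, adjusted p = 0.000384, and both lay under 1.5-fold.

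Of the ephrins, *Efnb2* showed the largest change of any guidance gene. *Efnb2* (ENSMUSG00000001300, chr8:8617434-8661242), whose transmembrane product binds EphB receptors and EphA4, was at 135, 134 and 133 FPKM in WT NS and at 318, 332 and 304 in WT St libraries. In libraries labeled TNFR2-/- it was at 106, 110.4 and 70.3 (NS) and 387, 413 and 335 (St). WT NS replicates were nearly equal, culture 5 was lowest in both conditions among those labeled TNFR2-/-, and no St value came near an NS value. The log2 fold change was 1.25 ± 0.15 SE, adjusted p = 0.000177 in WT and 2.001 ± 0.15 SE, adjusted p = 3.76e-06 in cultures labeled TNFR2-/-. *Efna2* (ENSMUSG00000003070, chr10:80179482-80190010), which encodes a GPI-anchored ligand of EphA receptors, had 25.2, 20.8 and 25.3 FPKM in WT NS and 13.3, 12.1 and 14.8 in WT St. Libraries labeled TNFR2-/- had 32.8, 33.8 and 42.9 (NS) and 16.2, 15.8 and 20.7 (St). It fell in each of the 6 cultures, by 0.76 to 0.90 in WT and by 0.997 to 1.07 in cultures labeled TNFR2-/- on the log2 scale (−0.80 ± 0.14 SE, adjusted p = 0.00251; −1.04 ± 0.14 SE, adjusted p = 0.000343). *Efna5* (ENSMUSG00000048915, chr17:62604184-62881317), another EphA ligand gene, had few reads, 119, 120 and 126 in NS and 223, 176 and 196 in St libraries labeled TNFR2-/-. Those are 1.78, 1.78 and 1.87 and 3.34, 2.61 and 3.07 FPKM, without overlap (0.60 ± 0.14 SE, adjusted p = 0.00977). WT libraries had 2.26, 1.86 and 2.56 (NS) and 2.96, 2.07 and 2.63 (St) FPKM, which overlapped (0.16 ± 0.14 SE, adjusted p = 0.538). The summed ephrin-B level per annotated length was 14.2 to 17.1 (NS) and 22.0 to 23.8 (St) in WT libraries, and 12.01 to 15.3 and 23.0 to 28.2 in libraries labeled TNFR2-/-. *Efnb1* and *Efnb3* were not called (log2 fold changes of −0.30 and 0.13 in WT and −0.35 and 0.12 in cultures labeled TNFR2-/-).

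**Figure D3:**
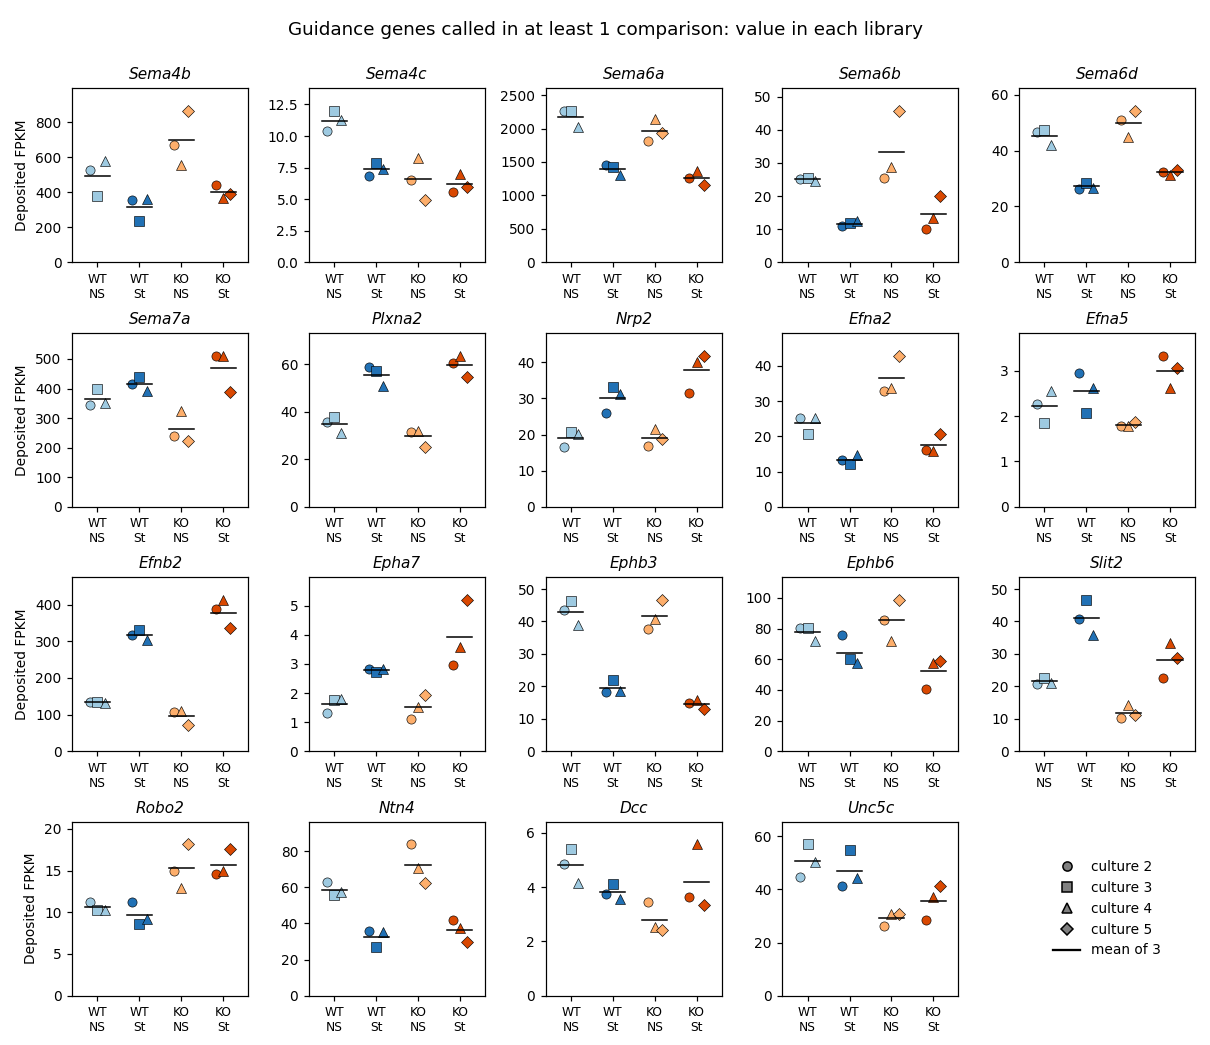
Deposited FPKM in each library of the 19 guidance genes called in at least 1 comparison (KO, libraries labeled TNFR2-/-; symbols mark culture numbers, which do not match between genotypes; lines are means of 3). FPKM are not comparable between panels. Efnb2 in St libraries lies between 304 and 413 FPKM, above all NS libraries, and Slit2 and Unc5c are lower in KO NS than in WT NS libraries.

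The Eph receptor genes moved both ways. *Ephb3* (ENSMUSG00000005958, chr16:21204755-21223305), which encodes a receptor tyrosine kinase for ephrin-Bs, had 43.5, 46.3 and 38.8 FPKM in WT NS and 18.2, 22.0 and 18.6 in WT St libraries. It had 37.7, 40.8 and 46.6 (NS) and 14.8, 15.9 and 12.9 (St) in libraries labeled TNFR2-/-. Every St library was well below every NS library (−1.11 ± 0.11 SE, adjusted p = 6.14e-05 in WT; −1.49 ± 0.11 SE, adjusted p = 4.96e-06 in cultures labeled TNFR2-/-). *Ephb6* (ENSMUSG00000029869, chr6:41605482-41620509), whose product lacks kinase activity, fell in cultures labeled TNFR2-/- from 85.9, 72.1 and 98.7 to 40.6, 57.8 and 58.7 FPKM (−0.71 ± 0.16 SE, adjusted p = 0.00916). In WT it was at 80.4, 80.5 and 72.2 and 76.1, 59.9 and 57.3 FPKM, with overlap (−0.28 ± 0.16 SE, adjusted p = 0.322). *Ephb4* varied widely between cultures, from 28.0 to 65.0 FPKM in WT NS, and its change in cultures labeled TNFR2-/- (−0.98 ± 0.38 SE) had an adjusted p of 0.0876, or of 0.00451 with libraries paired by culture, where it became a call. It was also one without WT NS replicate 3, a library that bears on its spread alone (adjusted p = 0.0497). *Epha7* (ENSMUSG00000028289, chr4:28813131-28967499), an EphA receptor gene, was low, with 180, 217 and 245 reads in WT NS and 391, 375 and 390 in WT St libraries. Libraries labeled TNFR2-/- had 155, 213 and 268 (NS) and 409, 495 and 684 (St). In FPKM these were 1.31 to 1.78, 2.72 to 2.84, 1.12 to 1.93 and 2.97 to 5.20, so St and NS did not overlap (0.65 ± 0.20 SE, adjusted p = 0.0473 in WT; 1.11 ± 0.20 SE, adjusted p = 0.00205 in cultures labeled TNFR2-/-). *Epha4*, which binds ephrins of both classes, had −0.43 ± 0.13 SE, adjusted p = 0.0319 in cultures labeled TNFR2-/-. *Ephb2* had −0.18 ± 0.12 SE, adjusted p = 0.37 in WT and *Epha2* −0.52 ± 0.33 SE, adjusted p = 0.375, and neither was called. Both were lower in the St library of all 6 cultures. With limma and libraries paired by culture, *Ephb2* had an adjusted p of 0.106 in WT and 0.0485 in cultures labeled TNFR2-/-. *Epha2* then had −0.52 ± 0.07 SE, adjusted p = 0.00247 and −0.36 ± 0.07 SE, adjusted p = 0.00821. All of these changes lay under 1.5-fold.

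Of the Slits, *Slit2* was called and *Slit1* and *Slit3* were not. *Slit2* (ENSMUSG00000031558, chr5:47983138-48307733), which encodes a secreted repellent, rose from 20.7, 22.7 and 21.1 to 40.7, 46.6 and 35.8 FPKM in WT OPCs. In cultures labeled TNFR2-/- it rose from 10.2, 14.2 and 11.3 to 22.5, 33.2 and 28.7 FPKM. Within each genotype the groups were separate (0.91 ± 0.16 SE, adjusted p = 0.00249; 1.20 ± 0.16 SE, adjusted p = 0.000285), while the lowest St library labeled TNFR2-/- was level with WT NS. *Slit3*, at 2.61 to 3.27 FPKM in NS and 1.07 to 2.05 in St libraries labeled TNFR2-/-, had −0.65 ± 0.26 SE, adjusted p = 0.096 without pairing, and a call with pairing by culture (adjusted p = 0.0127). *Slit1*, the Slit gene of the highest mean level, had −0.22 ± 0.14 SE, adjusted p = 0.359 in WT. None of the 4 Robo genes was called with stimulation by limma or voom over the 12 libraries. At an unadjusted p under 0.05 there were 0 in WT and 2 in cultures labeled TNFR2-/- with limma. With voom and a minimum of 10 reads there were 0 and 1 of 3 tested. *Robo3*, a Robo receptor gene, had very few reads, 25, 18 and 8 in NS and 8, 8 and 8 in St libraries labeled TNFR2-/-. In FPKM it was at 6.11, 4.37 and 1.94 in NS and 1.96, 1.94 and 2.05 in St libraries (−0.79 ± 0.32 SE, adjusted p = 0.0961). It was called lower with a weight for each library (−1.15 ± 0.28 SE, adjusted p = 0.0108), without TNFR2-/- NS replicate 5 (−1.19 ± 0.22 SE, adjusted p = 0.00475) and without both libraries of culture 5 (−1.21 ± 0.26 SE, adjusted p = 0.0116). *Robo1* was at 57.1 to 69.6 FPKM in NS and 76.7 to 83.5 in St libraries labeled TNFR2-/- (0.34 ± 0.10 SE, adjusted p = 0.0306), and at 56.8 to 70.4 and 66.2 to 78.6 in WT (0.17 ± 0.10 SE, adjusted p = 0.302). Of the netrins, *Ntn4* (ENSMUSG00000020019, chr10:93640681-93747207), a basement membrane netrin, fell from 62.9, 55.6 and 57.7 to 35.9, 27.0 and 35.3 FPKM in WT. Cultures labeled TNFR2-/- went from 83.7, 70.9 and 62.3 to 42.0, 37.7 and 29.95 FPKM. All 6 cultures fell (−0.84 ± 0.15 SE, adjusted p = 0.00328; −0.98 ± 0.15 SE, adjusted p = 0.000926). *Ntn1*, the ligand of DCC and UNC5 receptors, was at 305 to 314 (NS) and 302 to 337 (St) FPKM in WT and 310.0 to 373 and 320.3 to 347 in libraries labeled TNFR2-/-, with changes of 0.05 ± 0.07 SE and −0.03 ± 0.07 SE (adjusted p = 0.704 and 0.786). No netrin receptor gene was called with stimulation by limma or voom over the 12 libraries scaled by their totals. At an unadjusted p under 0.05 there was 1 of 5 in WT and 2 in cultures labeled TNFR2-/- with either tool, and *Unc5a* passed the adjusted p under 1.5-fold in both genotypes (−0.50 ± 0.11 SE, adjusted p = 0.0124; −0.51 ± 0.11 SE, adjusted p = 0.00833). Without WT St replicate 3, *Unc5a* was called lower in WT (−0.60 ± 0.11 SE, adjusted p = 0.00669). *Dcc*, with 0.50 ± 0.18 SE, adjusted p = 0.0704 in cultures labeled TNFR2-/-, was called higher there under median-of-ratios scaling (0.60 ± 0.19 SE, adjusted p = 0.0484), without NS replicate 2 (0.63 ± 0.19 SE, adjusted p = 0.041) or without St replicate 5 (0.62 ± 0.19 SE, adjusted p = 0.0437).

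The calls of *Efnb2*, *Slit2*, *Plxna2*, *Ephb3*, *Ntn4* and *Efna2* with stimulation held in both genotypes under all 25 alternatives run. That of *Epha7* in WT was lost without any one of the 6 WT libraries, without TNFR2-/- NS replicate 4 or without TNFR2-/- St replicate 4 (adjusted p = 0.0618 to 0.162). It was lost too without a filter on low values (0.0995), under quantile normalization (0.0517) and with a pseudocount of 1 FPKM (log2 0.54). That of *Nrp2* in WT fell under 1.5-fold without WT NS replicate 2 (log2 0.55) or WT St replicate 3 (0.58). In cultures labeled TNFR2-/-, *Sema4b* was not called without NS replicate 2 or 5 or St replicate 4 or 5 (adjusted p = 0.0518 to 0.0757), nor without both libraries of culture 5 (0.136). Of the other calls there, *Sema6a* fell under 1.5-fold without NS replicate 4 (log2 −0.57) or St replicate 5 (−0.58), *Sema6d* without NS replicate 5 (−0.56), *Efna5* without St replicate 2 (0.53) or 5 (0.58) and *Ephb6* without St replicate 2 (−0.54). Under median-of-ratios scaling *Sema6a* and *Sema6d* were at −0.52 and −0.51. *Sema6a* was at −0.56 with a weight for each library and *Efna5* at 0.51 with a pseudocount of 1 FPKM, and *Sema6b* missed the threshold when only the 6 libraries labeled TNFR2-/- were fitted (adjusted p = 0.051). The 14 calls there other than that of *Sema4b* were also calls without both libraries of culture 5, with a log2 change of 1.88 for *Efnb2* and −1.33 for *Ephb3*. OPC markers summed to less in St than in NS libraries (above), with *Cspg4* and *Olig2* called lower and *Sox10* called higher in WT (−0.66 ± 0.12 SE; −1.23 ± 0.10 SE; 0.61 ± 0.17 SE) and *Olig2* called lower in cultures labeled TNFR2-/- (−1.16 ± 0.10 SE), and their part in the falls was not tested.

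**Figure D4:**
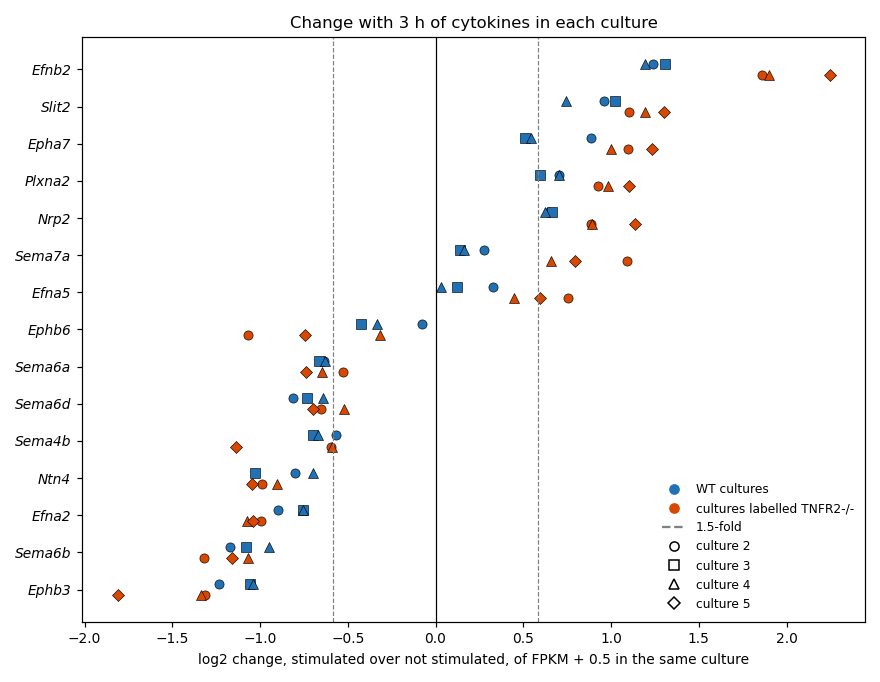
Log2 change of FPKM + 0.5 from the NS to the St library of each culture for the 15 guidance genes called with stimulation in at least 1 genotype; symbols mark culture numbers, and dashed lines mark 1.5-fold. For Efnb2, Slit2, Plxna2 and Nrp2 all 6 cultures lie above 0, and for Ephb3, Sema6b, Efna2 and Ntn4 all 6 lie below 0.

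Whether the response differed between genotypes was tested as the interaction. No member was called (limma, 0 of 66 against 0.00553% of all genes, that is 1 of 18081). At an unadjusted p under 0.05 there were 6 members with limma, 7 with voom on the recovered reads and 16 with libraries paired by culture. Over all 18081 genes there were 1437, 1299 and 3849, so pairing raised the count for genes at large too. The smallest adjusted p of a member was 0.496, 0.668 and 0.0968. The values with the smallest p were those of *Efnb2* (0.76 ± 0.21 SE, adjusted p = 0.496), *Sema7a* (0.66 ± 0.20 SE, adjusted p = 0.512) and *Dcc* (0.79 ± 0.26 SE, adjusted p = 0.533). *Efnb2* rose by 1.19 to 1.31 on the log2 scale in the 3 WT cultures and by 1.86 to 2.25 in those labeled TNFR2-/-. The corresponding values of *Sema7a* were 0.14 to 0.27 and 0.66 to 1.09, and those of *Slit2* 0.74 to 1.02 and 1.10 to 1.30 (interaction 0.29 ± 0.22 SE, adjusted p = 0.804). With paired libraries the interaction of *Efnb2* and of *Sema7a* had an adjusted p of 0.0968 each. These p values miss the threshold and do not show that the genotypes responded alike.

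In NS OPCs the guidance genes that differed between genotypes were mostly lower in libraries labeled TNFR2-/-. *Slit2*, the netrin receptor genes *Unc5c* and *Dcc*, and *Sema4c* were lower, by 1.62-fold to 1.79-fold, and *Efna2* was 1.52-fold higher. These were 5 of 66 members (1 higher and 4 lower), which is 7.58% against 2.9% of all genes tested (1.62% higher and 1.28% lower). Under median-of-ratios scaling and under quantile normalization 0 were higher and 4 lower. Groups did not overlap for 15 members (22.7%), against 34.2% of all genes. The median log2 difference of members was −0.03, and that of all genes tested 0.04.

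*Slit2* was at 20.7, 22.7 and 21.1 FPKM in WT NS and 10.2, 14.2 and 11.3 in libraries labeled TNFR2-/- NS. Each of the latter was below each WT library (−0.84 ± 0.16 SE, adjusted p = 0.0175). *Unc5c* (ENSMUSG00000059921, chr3:141465216-141834924), which encodes a repulsive netrin receptor, was at 44.6, 56.9 and 50.3 FPKM in WT NS and 26.2, 30.8 and 30.9 in libraries labeled TNFR2-/- NS, again without overlap (−0.78 ± 0.15 SE, adjusted p = 0.019). *Dcc* (ENSMUSG00000060534), which encodes the netrin-1 receptor for attraction, measured 4.85, 5.42 and 4.15 FPKM in WT NS and 3.44, 2.51 and 2.404 in libraries labeled TNFR2-/- NS (−0.70 ± 0.18 SE, adjusted p = 0.0384). All 5 netrin receptor genes had a lower mean in libraries labeled TNFR2-/- NS, and their summed level per annotated length was 13.7 to 14.2 there and 17.4 to 18.4 in WT NS. For *Unc5d* the log2 difference was −0.67 ± 0.27 SE, adjusted p = 0.122, and for *Unc5a* and *Unc5b* −0.02 and −0.11. *Sema4c* (ENSMUSG00000026121, chr1:36548639-36558349) was at 10.4, 11.98 and 11.3 FPKM in WT NS and 6.48, 8.27 and 4.94 in libraries labeled TNFR2-/- NS (−0.76 ± 0.16 SE, adjusted p = 0.0212). *Efna2* was higher, at 32.8, 33.8 and 42.9 FPKM in libraries labeled TNFR2-/- NS and 25.2, 20.8 and 25.3 in WT NS, with the highest value in culture 5 (0.61 ± 0.14 SE, adjusted p = 0.0279). Under median-of-ratios scaling and quantile normalization its log2 difference was 0.56 and 0.56, just under 1.5-fold. *Robo2*, a Slit receptor gene, had 10.3 to 11.3 FPKM in WT NS and 13.0 to 18.1 in libraries labeled TNFR2-/- NS, a difference under 1.5-fold (0.50 ± 0.14 SE, adjusted p = 0.0429). *Epha1* had 37, 51 and 58 reads in WT NS and 18, 29 and 7 in libraries labeled TNFR2-/- NS, and lay below 1 FPKM (−0.48 ± 0.12 SE, adjusted p = 0.0366).

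These calls depended on single libraries. None of the 5 was a call without WT NS replicate 3, WT NS replicate 4 or TNFR2-/- NS replicate 5, or when the 6 NS libraries were fitted alone, and leaving out TNFR2-/- NS replicate 2 left 3. Leaving out TNFR2-/- NS replicate 4 left 4 of them, and *Efnb2*, *Nrp1*, *Robo2* and *Sema7a* were then called in addition. *Dcc* was also lost without WT NS replicate 2 or any WT St replicate. The log2 differences without TNFR2-/- NS replicate 5 kept their direction, from −0.81 for *Slit2* to 0.48 for *Efna2*. Without both libraries of culture 5, *Unc5c* was still called (−0.82 ± 0.16 SE, adjusted p = 0.0389), *Slit2* was at −0.81 ± 0.19 SE, adjusted p = 0.0508, *Dcc* at −0.62 ± 0.19 SE, adjusted p = 0.0897, *Sema4c* at −0.58 ± 0.13 SE, adjusted p = 0.0491 and *Efna2* at 0.48 ± 0.11 SE, adjusted p = 0.0451. *Sema3d*, a secreted class 3 ligand gene at 32.1, 42.1 and 42.2 FPKM in WT NS, had 21.9, 25.2 and 53.4 in libraries labeled TNFR2-/- NS, with culture 5 above and the other two below the WT range. It was not called with culture 5 (−0.31 ± 0.37 SE, adjusted p = 0.615) and was called lower without it (−0.70 ± 0.16 SE, adjusted p = 0.0463). *Plxnb3* likewise had 12.4 to 16.8 FPKM in WT NS, 13.3 and 12.3 in cultures 2 and 4 labeled TNFR2-/-, and 31.9 in culture 5. Mural and fibroblast markers, none of the 6 at 0 in either NS group, summed to 13.0 to 29.8 RPM in WT NS and 8.31 to 10.996 in libraries labeled TNFR2-/- NS, and the astrocyte markers given above were higher there; the part of either in these differences was not tested.

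Between the stimulated groups 1 member was called, *Robo2*, which is 1.52% of 66 against 1.8% of all genes tested (1.18% higher). *Robo2* (ENSMUSG00000052516, chr16:73891839-74411825) was at 11.2, 8.57 and 9.14 FPKM in WT St and 14.5, 14.997 and 17.6 in libraries labeled TNFR2-/- St. All 3 of the latter were above WT St (0.68 ± 0.14 SE, adjusted p = 0.0264), as in NS. The call was lost without WT St replicate 3 or 4 or TNFR2-/- St replicate 2 or 5 (adjusted p = 0.0562 to 0.106), and without both libraries of culture 5 it stayed a call (0.60 ± 0.12 SE, adjusted p = 0.0487). At an unadjusted p under 0.05 there were 13 of 66 members with limma and 13 with voom. Over all 18081 genes tested there were 4820 and 4859, so the members did not stand out. *Slit2*, lower in libraries labeled TNFR2-/- NS, had −0.55 ± 0.16 SE, adjusted p = 0.065 in St libraries, at 35.8 to 46.6 FPKM in WT and 22.5 to 33.2 in those labeled TNFR2-/-, and was called lower without TNFR2-/- St replicate 4 (−0.67 ± 0.16 SE, adjusted p = 0.0436). *Unc5c* was at 41.2, 54.8 and 44.5 FPKM in WT St and 28.5, 37.1 and 41.5 in those labeled TNFR2-/- (−0.39 ± 0.15 SE, adjusted p = 0.137), *Dcc* at 3.76, 4.12 and 3.54 and 3.64, 5.57 and 3.35 (0.09 ± 0.18 SE, adjusted p = 0.774). *Sema4c* was at 5.53, 7.02 and 5.95 FPKM in those labeled TNFR2-/- (−0.24 ± 0.16 SE, adjusted p = 0.351). The stimulated groups overlapped for all 3 genes. Astrocyte markers summed to 1466 to 1544 RPM in WT St and 2208 to 3403 in libraries labeled TNFR2-/- St, and their part in the *Robo2* difference was not tested. Groups did not overlap for 14 members (21.2%), against 32.7% of all genes.

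The 10 tested members below 1 FPKM could not be called by the rule above. With voom on the recovered reads and a minimum mean of 10 reads in place of 1 FPKM, an alternative chosen after seeing the data, 6 of the calls that this added lay below 1 FPKM. The limit of 1 FPKM was dropped for every gene, and no share of all genes is set beside these calls. They therefore describe single genes and do not show that the members stood out. *Efna3* and *Efna4*, ephrin-A ligand genes, were lower in St libraries labeled TNFR2-/-. *Efna3* had 90, 71 and 91 reads in NS and 42, 51 and 30 in St libraries (−1.02 ± 0.27 SE, adjusted p = 0.0131). *Efna4* had 48, 47 and 38 and 26, 17 and 12 reads (−1.28 ± 0.38 SE, adjusted p = 0.025). NS and St reads did not overlap for either gene. In WT the same comparison gave −0.79 ± 0.27 SE, adjusted p = 0.0648 for *Efna3* and −0.89 ± 0.38 SE, adjusted p = 0.138 for *Efna4*. *Sema6c*, the remaining class 6 gene, had 27, 29 and 22 reads in WT NS and 14, 18 and 10 in WT St (−0.95 ± 0.30 SE, adjusted p = 0.0452), and −0.73 ± 0.28 SE in cultures labeled TNFR2-/- (adjusted p = 0.0695). *Epha1* and *Epha10* were lower in libraries labeled TNFR2-/- NS (−1.66 ± 0.40 SE, adjusted p = 0.0223; −0.84 ± 0.26 SE, adjusted p = 0.048), *Epha10* with 68, 109 and 99 reads in WT NS and 48, 71 and 42 in those labeled TNFR2-/-. *Epha10* was also lower in libraries labeled TNFR2-/- St, with 28, 45 and 30 reads against 67, 77 and 81 in WT St (−1.12 ± 0.29 SE, adjusted p = 0.0367).

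Of 89 other genes of these pathways, listed for their role as partners or effectors, 84 were tested. In WT, 6 rose and 5 fell with stimulation (13.1% against 7.53% of all genes), and in cultures labeled TNFR2-/- 7 rose and 8 fell (17.9% against 10.1%). *Rnd1*, a small GTPase gene whose product binds plexins, was at 52.2 to 83.6 FPKM in WT NS and 515 to 749 in WT St (3.22 ± 0.27 SE on the log2 scale). In libraries labeled TNFR2-/- it was at 47.4 to 102 and 1167 to 1622 (4.19 ± 0.27 SE). This was the largest change among the partner genes called. *Met*, the hepatocyte growth factor receptor that associates with plexin-Bs, rose in both genotypes (1.22 ± 0.16 SE; 1.45 ± 0.16 SE), as did *Rras*, a Ras-family target of plexins (0.67 ± 0.12 SE; 0.72 ± 0.12 SE), and *Fes*, a kinase of plexin-A signaling (1.67 ± 0.40 SE; 1.94 ± 0.40 SE). *Tubb3*, a tubulin gene that is also a neuron marker, rose by 3.06 and 3.18, while the other 5 neuron markers summed to 67.4 to 91.2 RPM in NS and 55.8 to 67.7 in St libraries. Of the genes of guanine nucleotide exchange factors, *Vav2* (−0.70 ± 0.12 SE; −0.78 ± 0.12 SE), *Vav3* (−0.59 ± 0.18 SE; −0.64 ± 0.18 SE), which act below Eph receptors, and *Tiam2* (−1.03 ± 0.19 SE; −1.07 ± 0.19 SE), which acts on Rac, fell, as did the UNC5 ligand gene *Flrt1* (−1.20 ± 0.17 SE; −0.87 ± 0.17 SE). *Limk1*, *Limk2*, *Src* and *Mical1* were called lower in cultures labeled TNFR2-/- (−0.60 ± 0.06 SE; −0.75 ± 0.09 SE; −0.70 ± 0.08 SE; −1.37 ± 0.29 SE), where their interaction with genotype had an adjusted p of 0.548 to 0.804. *Limk1* and *Limk2* encode kinases of cofilin. In NS OPCs 2 partner genes were higher and 6 lower in libraries labeled TNFR2-/- (9.52% against 2.9%). The lower ones held all 3 FLRT genes, which encode UNC5 ligands, *Flrt1* (−0.64 ± 0.17 SE), *Flrt2* (−0.73 ± 0.16 SE) and *Flrt3* (−0.98 ± 0.23 SE), with *Fes* (−1.64 ± 0.40 SE), *Cd72*, a SEMA4D receptor gene (−0.80 ± 0.22 SE), and *Grb10*, an adaptor gene (−0.72 ± 0.20 SE), and the higher ones were *Rgma*, which encodes a neogenin ligand (0.60 ± 0.14 SE), and *Tiam2* (0.79 ± 0.19 SE). *Tiam2* was also higher in libraries labeled TNFR2-/- St (0.75 ± 0.19 SE), the 1 partner gene called there (1.19% against 1.8% of all genes). When single libraries were left out, 0 to 8 were called in NS (0 without WT NS replicate 3 or 4 or TNFR2-/- NS replicate 5) and 0 to 4 in St. With a weight for each library 6 were called in St, with only the groups compared fitted 0 were called in NS or St, and the 1 call in St was lost without both libraries of culture 5.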

How the data were processed

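RNA-seq was made from 12 libraries of primary mouse OPCs, 3 in each of 4 groups taken from the labels. Per the submitters' processing notes, reads were trimmed with Trim Galore and aligned with STAR, GRCm38 was the build and edgeR was used; the study's methods name Ensembl as the annotation. The authors deposited FPKM per gene in 2 tables, 1 for NS and 1 for St libraries. 229 of 45792 entries share a symbol with another entry and were left out. In each library FPKM were whole multiples (within 0.001) of 1 value per gene, so the read pairs behind each value were recovered; 97.92% of 16845 genes compared had the same divisor in both tables.

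Groups were compared with limma 3.58.1 in R 4.3.3 on log2(FPKM + 0.5), fitted to 4 group means over 12 libraries with a variance trend, for the 18081 genes that averaged at least 0.1 FPKM, two-sided, with Benjamini-Hochberg adjustment. Python 3.11.15, numpy 2.4.6, pandas 2.3.3 and matplotlib 3.10.9 were used for the rest. Values in every library are given for each guidance gene called in any of the 5 comparisons and for the gene of the highest level in each class, and fold changes for those at an adjusted p of at most 0.05. The members and lists were chosen with earlier results of these data known. On simulated data for the comparison of St groups (18080 genes), the fit called 84 of 100 genes with a 2-fold change and 100 of 100 with a 4-fold change, and 5 genes with none. The simulated counts were independent between libraries, with a fixed overdispersion and no effect of culture, and changes were placed only in genes above a minimum level. These rates therefore do not give those of the real comparisons, where cultures differed.

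Within a genotype, an NS and an St library that share a number deviated together from their group means (correlation 0.34 to 0.65 in 6 pairs over 13554 genes, against −0.45 to 0.09 in 12 pairs with other numbers), so numbers were taken to pair cultures within a genotype. Deviations from a group mean cancel within the group, so positive values for shared numbers lower those for other numbers by construction. The 2 ranges are thus not independent. Across genotypes the same number gave −0.06 to 0.2 in 4 pairs and was not taken as a pair. Other pseudocounts, filters, scalings, fits, voom on the recovered reads, replicate blocks and leaving out each library were tried. Depth limits the precision of genes with few reads, and counting error alone is covered by the limit of 3 reads for a count of 0. Matches to 1 further promoter motif are not reported here.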

Additional observations from a re-analysis of the deposited data

How the results depend on the processing

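Each called guidance gene kept the sign of its log2 change under every alternative run for it. The balance of calls between genotypes did not always hold. Between St genotypes, 1 higher became 0 higher and 2 lower with the number as a replicate block. Partner genes between NS genotypes went from 2 higher and 6 lower to 2 higher and 0 lower without TNFR2-/- NS replicate 2. Between St genotypes they went from 1 higher to 0 higher and 2 lower without TNFR2-/- St replicate 4. With stimulation, the number of guidance genes called stayed at 9 to 15 in WT and 13 to 21 in cultures labeled TNFR2-/- over 26 alternatives, and the interaction gave 0 in all 25. Between NS genotypes the count of 5 became 0 when only the 6 NS libraries were fitted, 2 without both libraries of TNFR2-/- culture 5 (*Unc5c* and *Sema3d*), and 0 to 8 when single libraries were left out. Between St genotypes the count of 1 became 0 when only the St libraries were fitted, 2 with a weight for each library, 2 with voom and a minimum of 10 reads, and 0 to 2 when single libraries were left out. Fitting only the groups compared leaves fewer libraries to estimate the spread; for the other changes the cause was not tested. The fits without both libraries of culture 5 and with voom and a minimum of 10 reads were chosen after seeing the data.

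With the culture as a replicate block within genotype, 12 of 66 guidance genes were called in WT, 17 in cultures labeled TNFR2-/- and 0 in the interaction. Over all 18081 genes, calls with stimulation rose too, from 1361 to 1590 in WT and from 1824 to 2049 in cultures labeled TNFR2-/-. At any fold change, 27 and 37 members had an adjusted p of at most 0.05 with the block, against 15 and 21 without. Each call made without the block remained, and the block added *Sema4b* in WT and *Ephb4* and *Slit3* in cultures labeled TNFR2-/-. Of the partner genes it called 13 in WT and 17 in cultures labeled TNFR2-/-, all 11 and 15 called without it among them, and added *Mical1* and *Mical2* in WT and *Chn2* and *Dpysl5* in cultures labeled TNFR2-/-. It changed no other call. With the number as a replicate block across genotypes, where numbers were not taken as pairs, 4 were called between NS genotypes and 2 (*Sema3f* and *Slit3*) between St genotypes, and 5 and 3 partner genes.

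For the partner genes the count of 8 between NS genotypes became 1 without a filter on low values, 0 when only the NS libraries were fitted, 1 without both libraries of culture 5 and 0 to 8 when single libraries were left out. The count of 11 in WT with stimulation ranged from 7 to 12 when single libraries were left out. The count of 1 between St genotypes became 0 without a filter, with only the St libraries fitted, without the variance trend and without both libraries of culture 5, 3 with voom, 4 with a filter of 10 reads with limma or voom, 6 with a weight for each library, and 0 to 4 when single libraries were left out.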
